A study of Mus musculus with 36 samples.

Results

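The 39 motile cilia genes described here encode the proteins that switch on, build and drive the beating cilia of the airway lining. They were given as a list of gene symbols and matched to the array's probe sets by the platform annotation. All 39 were found among the 19938 genes that the annotation names on probe sets of 1 symbol, and for each the brightest probe set was used; only Armc4 had 2. A filter on dim genes kept 37 of the 39 for testing, and Drc1 and Efhc2 lay under it. The list was not picked by measured values, but it was drawn up with earlier results of these arrays known.

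Total RNA of mouse lung was measured on 36 Affymetrix arrays. The mice were of strain A/J or C3H, and some had received 4 weekly injections of the tobacco carcinogen NNK, each of 100 mg/kg, while the others received no agent that the labels name. For untreated mice of each strain there were arrays from weeks 0, 3, 6, 9 and 12, and for NNK-treated mice from weeks 3, 6, 9 and 12 after exposure, all of them before mature tumours. This made 18 groups with 2 arrays in each. Whether both arrays of a group stem from different mice is not said in the labels, and the p-values below therefore reflect the spread of these samples alone, part of which may be technical. Age and sex of the mice are not in the labels either.

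Motile cilia cover the multiciliated cells of the airways and move mucus toward the throat. Each holds an axoneme, a ring of doublet microtubules around a central pair, in which outer and inner dynein arms slide neighbouring doublets against each other. Radial spokes and the nexin-dynein regulatory complex pass signals from the central pair to the dyneins, and ruler proteins set their spacing. The programme is turned on by Foxj1, together with RFX factors that bind X-box sites in the promoters of ciliary genes. Myb, which acts before Foxj1, and cyclin O (Ccno) help a cell to multiply its centrioles. In RNA of lung tissue, a lower level of such a gene can mean, among other things, fewer ciliated cells or less RNA per cell. These cannot be told apart here.

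Values are log2 intensities after quantile normalization of the 36 arrays, on a scale of log2(intensity + 16), and changes are differences on that scale with the standard error of the fit. A gene was called when its adjusted p in limma was under 0.05, with Benjamini-Hochberg adjustment over the 14953 genes tested. The mean of the 37 members ran from 8.56 to 9.27 over the 36 arrays; since a gene was kept only where its mean over the arrays reached 7.54, this level is no check of its own for ciliated cells. The club cell gene Scgb1a1 and the alveolar gene Sftpc, checks of airway and lung tissue, lay at 13.53 or above in all 36 arrays. In 5 arrays the acute-phase gene Saa3 was between 10.42 and 13.33, against 9.26 at most elsewhere: array 2 of untreated A/J at week 3, both NNK-treated A/J arrays of week 6 and both NNK-treated C3H arrays of week 3. In 3 untreated A/J arrays, array 2 of week 0 and both of week 6, the cornified skin gene Lor stood at 13.65, 12.74 and 13.59, while its highest level elsewhere was 7.40. The counts of calls after NNK are given with all arrays and without those of high Lor. At week 6 of A/J this was not possible, since every array of the comparison had high Lor or high Saa3. Without those of high Saa3 a lone untreated A/J array is left at week 3, and the median NNK change of the members is given.

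Because RFX factors belong to the members, their binding letters were looked for in the promoters of the members. RefSeq windows on assembly GRCm38.p6, from 250 bases before to 50 after each annotated start, were at hand for 31 of the 39 members, in 33 windows. The letters GTTGCC, the core of the X-box, were present on either strand in 17 of the 33 windows (51.5%), against 12.5% of all 32851 windows of the same length. Of the 21 such sites in members, 17 lay before the start and 11 of them within 100 bases of it. In 8 members that rose after NNK in A/J a site lay upstream of the start, and for these the site nearest the start is printed with its surroundings, in the direction of the gene and with the site in capitals (GTTGCC, or GGCAAC where the site is on the other strand).

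Dynlrb2: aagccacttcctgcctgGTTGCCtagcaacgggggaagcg
Lrrc23: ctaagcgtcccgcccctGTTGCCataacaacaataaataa
Iqcg: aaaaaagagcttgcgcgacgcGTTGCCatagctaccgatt
Ccdc113: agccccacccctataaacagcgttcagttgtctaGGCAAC
Tekt1: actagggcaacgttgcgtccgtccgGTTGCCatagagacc
Enkur: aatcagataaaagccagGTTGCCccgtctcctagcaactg
Pifo: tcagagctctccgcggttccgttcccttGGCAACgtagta
Sntn: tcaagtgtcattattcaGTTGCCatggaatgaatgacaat

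The Dynlrb2 stretch is chr8:116504947-116504986 (plus strand), with the site 51 bases before the start. Those of Lrrc23 and Iqcg are chr6:124779744-124779783 (minus strand) and chr16:33056187-33056226 (minus strand), with sites 39 and 19 bases before the start. Ccdc113 has its stretch at chr8:95534060-95534099 (plus strand) and its site 6 bases before the start. Tekt1 and Enkur lie at chr11:72361883-72361922 (minus strand) and chr2:21205377-21205416 (minus strand), with sites at 15 and 34 bases. Pifo lies at chr3:106001498-106001537 (minus strand), with its site at 12 bases, and Sntn at chr14:13670793-13670832 (plus strand), with its site at 66 bases.

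Longer spellings, in which 2 such sites face each other as in a full X-box and which can overlap GTTGCC, were also counted. GTNNCC and GGNNAC parted by 2 bases were found in 6 of the 33 windows (18.2%) and in 1.88% of all windows. The stricter pair of GTTNCC and GGNAAC, at the same distance, was found in Pifo alone, as GTTCCCTTGGCAAC starting 20 bases before the start, and in 0.451% of all windows. The forkhead letters GTAAACA, of the kind bound by Foxj1, were found in 3 windows (9.09%; Myb, Sntn and Ak7), against 3.65% of all. In all, 10 spellings were counted. The longer GTTGCCAT was in 4 member windows (12.1%) and 1.35% of all, and the perfect palindrome, GTTGCCAT followed by GGCAAC, in 0 and 0.0183%. GTTGCC and GGNAAC parted by 2 bases were in 1 (3.03%) and 0.298%, GTTGCC and GNAAC parted by 3 bases in 4 (12.1%) and 0.426%, GTTNCC and GNNAAC parted by 2 bases in 2 (6.06%) and 0.673%, and TGTTTACT in 1 (3.03%) and 1.18%. As a count with no test, of 29 members with both a window and a test, 11 of 16 with the letters and 10 of 13 without them rose in A/J. A match of letters is a description of the window and not a measured binding site.

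The first question was which of these genes NNK moved in each strain, over weeks 3 to 12. In A/J lungs 26 of the 37 members rose and 0 fell, at a rate of 7.44% of all genes tested rising and 2.6% falling. The median change of the members was 0.23, against 0.01 over all genes, and 34 of the 37 lay above 0. Changes ran from -0.09 for Stk33 to 0.50 for Cdhr4, that is up to 1.42-fold. All 4 tested radial spoke genes and all 4 tested ruler and regulatory complex genes rose, as did 7 of 9 dynein arm genes, 4 of 5 tektins and other microtubule proteins, 4 of 7 tip, adhesion and kinase genes, 2 of 5 regulators and 1 of 3 central pair genes. In no member did all 8 NNK-treated arrays lie above all 8 untreated arrays of weeks 3 to 12, a separation seen in 0.415% of all genes in A/J. Without the 3 arrays of high Lor, which removes week 6 from the A/J comparison, 14 members rose (3.24% of all genes), and all 14 were among the 26. Without week 6 in either strain 12 rose (2.41% of all genes), again all among the 26, and 36 of the 37 changes then lay above 0 with a median of 0.19. Leaving out the 5 arrays of high Saa3 also removes week 6 and leaves a lone untreated array at week 3. The median change was then 0.24, with 36 of the 37 above 0. With only the A/J arrays in the fit 14 members were called. The median residual SD over all genes was 0.106 in A/J and 0.0798 in C3H, and the fit of all arrays shares 1 estimate between them. The 12 members called with all arrays and not without those of high Lor were Dnaic1, Dnali1, Lrrc6, Zmynd10, Rsph1, Rsph9, Spag17, Ccdc39, Ccdc40, Tekt1, Tekt4 and Sntn. With any 1 of the 36 arrays left out, between 18 and 26 were called, and 17 of the 26 were called in every such fit. Of the other 9, Tekt1 lost its call in 23 of the 36 fits, Sntn in 10, Dnali1 and Spag17 in 9 each, Rsph9 in 6, and Dnaic1, Lrrc6, Zmynd10 and Tekt4 in 1 each.

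**Figure D1:**
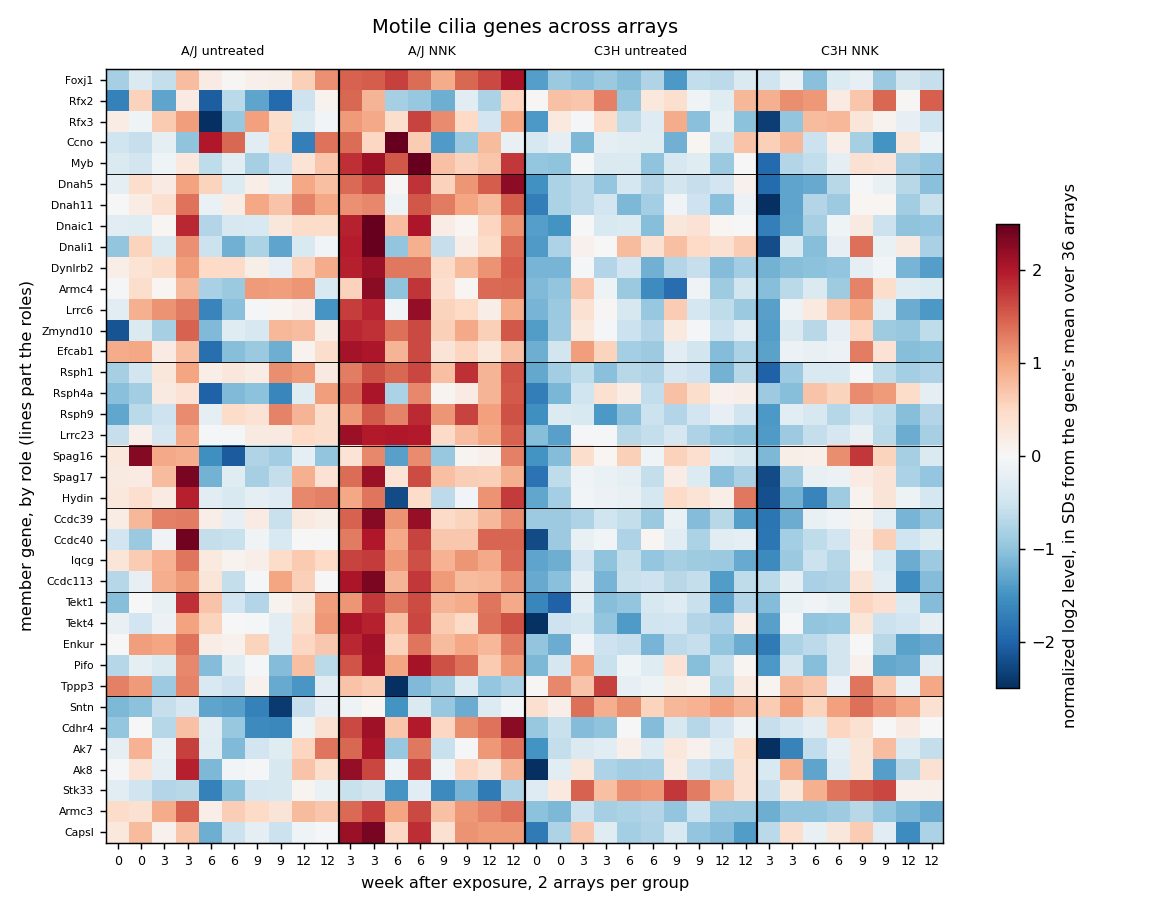
Level of each tested member in each array. Columns are arrays by strain, treatment and week, rows are genes by role, and colour gives the normalized log2 level in SDs from the gene's mean over the 36 arrays. The NNK-treated A/J arrays are the reddest block for most genes, while Sntn and Stk33 are red in C3H.

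Among the regulators, Foxj1 and Myb rose in A/J and Rfx2, Rfx3 and Ccno did not pass the test. Foxj1 (probe set 10393266), the master switch of the motile cilia programme, stood in untreated A/J lungs at 9.07 and 9.43 at week 3, 9.27 and 9.23 at week 6, 9.26 and 9.26 at week 9, and 9.38 and 9.52 at week 12. After NNK it stood at 9.61 and 9.62 at week 3, 9.67 and 9.59 at week 6, 9.47 and 9.60 at week 9, and 9.66 and 9.76 at week 12. In each of the 4 weeks both NNK-treated arrays were above both untreated arrays, and over all weeks only the second untreated array of week 12 reached into the range of the NNK-treated arrays. The rise was 0.32 ± 0.05 (adjusted p = 0.000231), or 1.25-fold. In C3H, untreated arrays lay between 8.84 and 9.13 (median 9.00) and NNK-treated arrays between 8.95 and 9.18 (median 9.09). These ranges overlapped for most of their width, and the change of 0.09 ± 0.05 was not called (adjusted p = 0.848).

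Myb (probe set 10368199) acts early in multiciliated cells, before Foxj1. Its untreated A/J levels were 9.34 and 9.41 at week 3, 9.23 and 9.30 at week 6, 9.19 and 9.25 at week 9, and 9.43 and 9.50 at week 12. Its NNK-treated levels were 9.72 and 9.78 at week 3, 9.67 and 9.88 at week 6, 9.50 and 9.48 at week 9, and 9.50 and 9.71 at week 12. In weeks 3, 6 and 9 both NNK-treated arrays were above both untreated ones, and in week 12 the lower of them was level with the higher untreated array. Myb rose by 0.32 ± 0.04 (adjusted p = 2.48e-05). In C3H its median was 9.29 untreated (range 9.16 to 9.36) and 9.23 after NNK (8.97 to 9.43), a change of -0.03 ± 0.04 (adjusted p = 0.94). The NNK range enclosed the untreated range on both sides there.

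The RFX factors and Ccno showed smaller differences. Rfx2 (probe set 10452151) held 9.25 and 9.49 at week 3, 9.13 and 9.35 at week 6, 9.25 and 9.15 at week 9, and 9.37 and 9.47 at week 12 untreated. After NNK it held 9.68 and 9.59 at week 3, 9.32 and 9.30 at week 6, 9.26 and 9.41 at week 9, and 9.33 and 9.54 at week 12. Its week 3 and week 9 arrays were higher after NNK and those of weeks 6 and 12 overlapped, and the difference of 0.12 ± 0.06 was not called (adjusted p = 0.164). Rfx3 (probe set 10466865) held 9.03 and 9.07 at week 3, 8.62 and 8.86 at week 6, 9.07 and 9.01 at week 9, and 8.92 and 8.95 at week 12 untreated. Its NNK-treated values were 9.08 and 9.06 at week 3, 9.01 and 9.15 at week 6, 9.09 and 9.01 at week 9, and 8.91 and 9.07 at week 12. The arrays separated in week 6 alone, where the first untreated array, one of the 2 with high Lor, was the lowest of all, and the difference over weeks of 0.10 ± 0.04 was not called (adjusted p = 0.105). Ccno (probe set 10407251), a cyclin-like protein needed for making many centrioles, held 8.88 and 8.75 at week 3, 9.27 and 9.17 at week 6, 8.87 and 9.01 at week 9, and 8.63 and 9.16 at week 12 untreated. Treated lungs had 9.16 and 9.01 at week 3, 9.40 and 9.03 at week 6, 8.68 and 8.76 at week 9, and 9.06 and 8.89 at week 12. Its arrays were higher after NNK in week 3 and lower in week 9, and the difference was 0.03 ± 0.06 (adjusted p = 0.773). In C3H the changes of Rfx2, Rfx3 and Ccno were 0.10 ± 0.06, -0.002 ± 0.04 and 0.04 ± 0.06, none called.

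Of the 9 dynein arm genes 7 rose in A/J. Dynlrb2 (probe set 10575725), a roadblock-type dynein light chain, had untreated A/J levels of 9.23 and 9.49 at week 3, 9.25 and 9.24 at week 6, 9.08 and 8.92 at week 9, and 9.28 and 9.44 at week 12. After NNK these were 9.91 and 10.01 at week 3, 9.62 and 9.62 at week 6, 9.24 and 9.38 at week 9, and 9.53 and 9.70 at week 12. Both NNK-treated arrays were above both untreated arrays in every week, with the widest gap at week 3, while the week 9 arrays of both treatments were the lowest of their groups. The rise was 0.39 ± 0.05 (adjusted p = 7.07e-05). In C3H the untreated arrays ran from 8.46 to 9.00 (median 8.68) and the NNK-treated arrays from 8.39 to 8.99 (median 8.54), with a change of -0.08 ± 0.05 (adjusted p = 0.872). Every A/J array lay above the median of either C3H group.

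Efcab1 (probe set 10433782), also named calaxin, binds calcium at the outer dynein arms. Untreated A/J lungs held 8.43 and 8.55 at week 3, 7.98 and 8.15 at week 6, 8.19 and 8.12 at week 9, and 8.41 and 8.48 at week 12. NNK-treated A/J lungs held 8.84 and 8.83 at week 3, 8.57 and 8.75 at week 6, 8.46 and 8.51 at week 9, and 8.44 and 8.55 at week 12. Both arrays were higher after NNK in weeks 3, 6 and 9 and the arrays interleaved in week 12, and Efcab1 rose by 0.33 ± 0.04 (adjusted p = 2.68e-05). The C3H medians were 8.25 untreated and 8.35 after NNK, with a change of 0.01 ± 0.04 (adjusted p = 0.981).

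Dnah5, Dnaic1 and Dnali1 are subunits of the motors themselves. Dnah5, an outer arm heavy chain, rose by 0.20 ± 0.05 (adjusted p = 0.0152), from 9.50 and 9.68 at week 3, 9.58 and 9.38 at week 6, 9.49 and 9.41 at week 9, and 9.67 and 9.62 at week 12 untreated. Its NNK-treated arrays held 9.77 and 9.82 at week 3, 9.46 and 9.86 at week 6, 9.58 and 9.70 at week 9, and 9.79 and 9.95 at week 12. Week 6 was the only week in which the 2 treatments overlapped. Dnaic1, an outer arm intermediate chain, rose by 0.16 ± 0.04 and Dnali1, an inner arm light intermediate chain, by 0.19 ± 0.06 (adjusted p = 0.0168 and 0.0353). Lrrc6 and Zmynd10, which act in the cytoplasm to preassemble dynein arms, rose by 0.24 ± 0.06 and 0.24 ± 0.06 (adjusted p = 0.0159 and 0.016). Dnah11, another outer arm heavy chain, and Armc4, a docking factor of outer arms, differed by 0.07 ± 0.05 and 0.08 ± 0.05 and were not called (adjusted p = 0.371 and 0.281). When the arrays of high Lor were left out, the calls of Dynlrb2, Efcab1 and Dnah5 held and those of Dnaic1, Dnali1, Lrrc6 and Zmynd10 were lost. In C3H 7 of these 9 genes had changes below 0, down to -0.14 ± 0.06 for Dnali1, and none was called.

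All 4 radial spoke genes rose in A/J, and Lrrc23 and Rsph4a, but not Rsph1 and Rsph9, were also called without the arrays of high Lor. Lrrc23 (probe set 10547820), a spoke protein, held 8.36 and 8.78 at week 3, 8.49 and 8.48 at week 6, 8.56 and 8.56 at week 9, and 8.65 and 8.62 at week 12 in untreated A/J lungs. NNK-treated lungs held 9.15 and 9.09 at week 3, 9.10 and 9.10 at week 6, 8.64 and 8.73 at week 9, and 8.79 and 8.94 at week 12. Both NNK-treated arrays were above both untreated arrays in every week, and the 4 arrays of weeks 3 and 6 stood together above 9 while those of week 9 came close to the untreated ones. The rise was 0.38 ± 0.05 (adjusted p = 2.27e-05), or 1.3-fold. The C3H arrays lay between 8.18 and 8.48 untreated (median 8.30) and between 8.06 and 8.44 after NNK (median 8.26), all below the lowest NNK-treated A/J array, and the change was -0.07 ± 0.05 (adjusted p = 0.89).

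Rsph4a (probe set 10362472), a spoke head protein, held 9.55 and 9.57 at week 3, 9.07 and 9.26 at week 6, 9.28 and 9.15 at week 9, and 9.43 and 9.72 at week 12 untreated. After NNK its arrays held 9.81 and 9.93 at week 3, 9.33 and 9.75 at week 6, 9.51 and 9.54 at week 9, and 9.68 and 9.82 at week 12. Its arrays separated in weeks 3, 6 and 9 and overlapped in week 12, and it rose by 0.29 ± 0.05 (adjusted p = 0.00147). In C3H the medians were 9.53 untreated and 9.61 after NNK, with a change of 0.02 ± 0.05 (adjusted p = 0.975). Rsph1 and Rsph9, the other spoke head genes, rose by 0.28 ± 0.07 and 0.27 ± 0.07 in A/J (adjusted p = 0.0102 and 0.0219) and differed by -0.001 ± 0.07 and -0.02 ± 0.07 in C3H (adjusted p = 0.999 and 0.99). Averaged over the 4 genes, spoke levels in A/J ran from 8.61 to 8.99 untreated and from 8.91 to 9.23 after NNK, and in C3H from 8.54 to 8.64 and from 8.29 to 8.73.

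**Figure D2:**
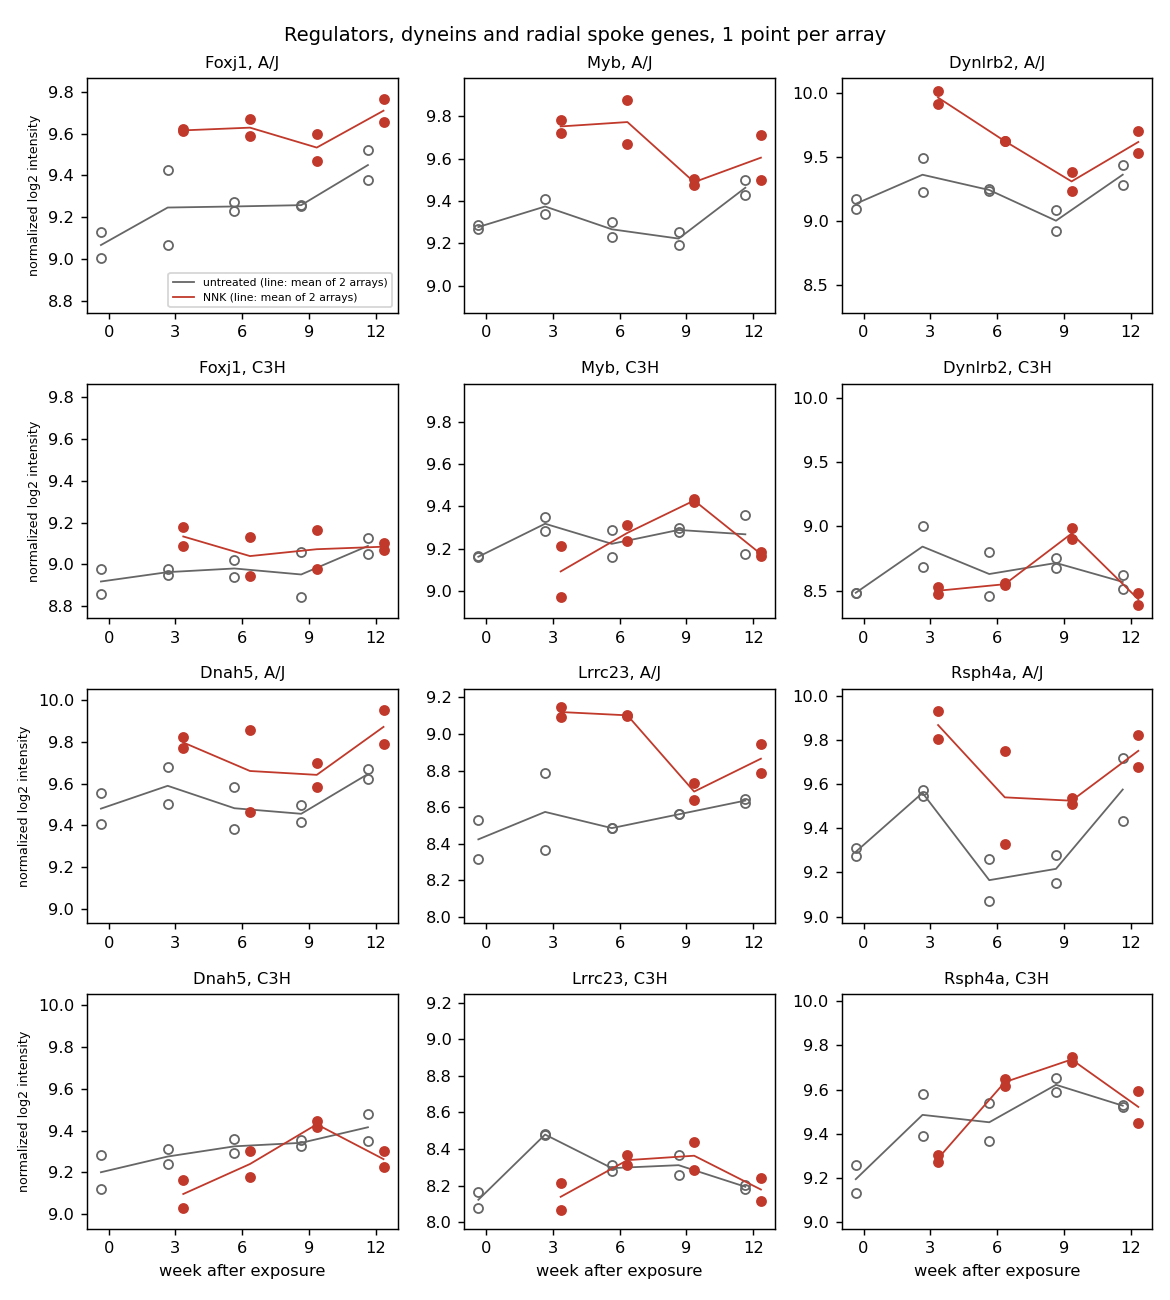
Levels of 2 regulators (Foxj1, Myb), 2 dynein genes (Dynlrb2, Dnah5) and 2 radial spoke genes (Lrrc23, Rsph4a) by week after exposure, 1 point per array, with lines through the mean of the 2 arrays. Axes give the normalized log2 intensity, with the same range for both strains of a gene. In A/J the NNK-treated arrays sit above the untreated ones in most weeks, and in C3H they run through each other.

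In the central pair apparatus, Spag17 rose and Spag16 and Hydin did not pass the test. Spag17 (probe set 10494684) held 8.27 and 8.59 at week 3, 7.88 and 8.06 at week 6, 7.95 and 8.00 at week 9, and 8.29 and 8.19 at week 12 untreated. NNK-treated arrays held 8.39 and 8.55 at week 3, 8.19 and 8.44 at week 6, 8.26 and 8.24 at week 9, and 8.24 and 8.29 at week 12. The highest A/J array was an untreated one, array 2 of week 3 with high Saa3, and no NNK-treated array exceeded it. The rise of 0.17 ± 0.05 (adjusted p = 0.0333) was lost without the arrays of high Lor (0.11 ± 0.06, adjusted p = 0.287), and its adjusted p reached up to 0.103 where a single array was left out, array 1 of untreated week 3. Spag16 (probe set 10347163) held 8.03 and 8.02 at week 3, 7.56 and 7.46 at week 6, 7.71 and 7.69 at week 9, and 7.81 and 7.67 at week 12 untreated. Its NNK-treated values were 7.92 and 8.08 at week 3, 7.60 and 8.08 at week 6, 7.68 and 7.87 at week 9, and 7.88 and 8.09 at week 12. The arrays separated in weeks 6 and 12, and the difference of 0.15 ± 0.07 was not called (adjusted p = 0.136). Hydin, a large protein of a central pair projection, differed by -0.02 ± 0.06 in A/J and by -0.17 ± 0.06 in C3H (adjusted p = 0.867 and 0.529), the lowest C3H change of any member.

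The ruler and regulatory complex genes that could be tested all rose in A/J. Iqcg (probe set 10439114), a subunit of the nexin-dynein regulatory complex, held 8.82 and 9.04 at week 3, 8.52 and 8.45 at week 6, 8.49 and 8.63 at week 9, and 8.72 and 8.64 at week 12 untreated. With NNK it held 9.21 and 9.23 at week 3, 8.92 and 9.17 at week 6, 8.82 and 8.93 at week 9, and 8.86 and 9.08 at week 12. Both NNK-treated arrays exceeded both untreated arrays in each week, and the highest untreated array was again array 2 of week 3. The rise was 0.36 ± 0.06 (adjusted p = 0.000341). Ccdc39 (probe set 10497731), one of the pair of rulers, held 9.08 and 9.09 at week 3, 8.76 and 8.66 at week 6, 8.77 and 8.55 at week 9, and 8.78 and 8.75 at week 12 untreated. Treated arrays held 9.14 and 9.38 at week 3, 9.04 and 9.35 at week 6, 8.86 and 8.88 at week 9, and 8.95 and 9.06 at week 12. It also separated in each week and rose by 0.28 ± 0.05 (adjusted p = 0.00197), a call that was lost without the arrays of high Lor (0.20 ± 0.06, adjusted p = 0.0598). Its partner Ccdc40 rose by 0.22 ± 0.05 and Ccdc113 by 0.23 ± 0.05 (adjusted p = 0.00876 and 0.00398), and of these Ccdc113 was also called without those arrays. In C3H the 4 genes differed by between -0.03 ± 0.05 (Ccdc40) and 0.04 ± 0.06 (Iqcg), none called. Drc1, the base subunit of the complex, lay under the filter, with levels between 6.65 and 7.42 over the 36 arrays, and was not tested.

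Among the tektins and other microtubule proteins 4 of 5 rose in A/J. Pifo (probe set 10500999), or pitchfork, held 8.03 and 8.43 at week 3, 7.84 and 8.04 at week 6, 8.11 and 7.84 at week 9, and 8.31 and 7.95 at week 12 untreated. After NNK it held 8.52 and 8.65 at week 3, 8.37 and 8.65 at week 6, 8.53 and 8.47 at week 9, and 8.29 and 8.39 at week 12. The arrays separated in weeks 3, 6 and 9, and in week 12 the first untreated array lay among the treated ones. The rise was 0.42 ± 0.08 (adjusted p = 0.00252), while in C3H the change was -0.16 ± 0.08 (adjusted p = 0.824). Enkur (probe set 10480414), an enkurin bound to the inner wall of the doublets, held 8.58 and 8.71 at week 3, 8.28 and 8.25 at week 6, 8.42 and 8.11 at week 9, and 8.41 and 8.46 at week 12 untreated. Its treated values were 8.91 and 8.98 at week 3, 8.43 and 8.70 at week 6, 8.50 and 8.57 at week 9, and 8.51 and 8.69 at week 12. It separated in every week, narrowly in weeks 9 and 12, and rose by 0.26 ± 0.06 (adjusted p = 0.0142). Tekt4 and Tekt1, filament proteins inside the doublets, rose by 0.24 ± 0.07 and 0.14 ± 0.04 (adjusted p = 0.0219 and 0.0442). Both lost their calls without the arrays of high Lor, while Pifo and Enkur kept theirs. Tppp3, which promotes tubulin polymerization, differed by -0.06 ± 0.06 (adjusted p = 0.569). Efhc2, another protein of the doublet lumen, lay under the filter with levels between 6.50 and 7.13.

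Of the 7 genes of the ciliary tip, adhesion, kinases and other functions, 4 rose in A/J. Cdhr4 (probe set 10588819), a cadherin-related membrane protein, held 9.80 and 10.17 at week 3, 9.91 and 9.74 at week 6, 9.58 and 9.57 at week 9, and 9.95 and 10.08 at week 12 untreated. Its NNK-treated arrays held 10.40 and 10.52 at week 3, 10.15 and 10.48 at week 6, 10.11 and 10.28 at week 9, and 10.33 and 10.55 at week 12. Both were higher in every week, and only array 2 of untreated week 3 reached the treated range, for a rise of 0.50 ± 0.06 (adjusted p = 1.28e-05). Its C3H change was the highest of any member there, 0.15 ± 0.06, and was not called (adjusted p = 0.694). Capsl (probe set 10423024), a calcyphosine-like calcium-binding protein, held 8.93 and 9.09 at week 3, 8.57 and 8.75 at week 6, 8.84 and 8.75 at week 9, and 8.87 and 8.89 at week 12 untreated. NNK-treated arrays had 9.48 and 9.54 at week 3, 9.04 and 9.40 at week 6, 9.00 and 9.20 at week 9, and 9.19 and 9.19 at week 12. It separated in every week and rose by 0.42 ± 0.06 (adjusted p = 0.000198). Armc3, an armadillo repeat protein, rose by 0.28 ± 0.05 and Sntn, the sentan of the ciliary tip, by 0.18 ± 0.05 (adjusted p = 0.00104 and 0.0372). Of these 4, Sntn was not called without the arrays of high Lor. The adenylate kinases Ak7 and Ak8 differed by 0.10 ± 0.06 and 0.12 ± 0.07 and the kinase Stk33 by -0.09 ± 0.04, none called (adjusted p = 0.249, 0.254 and 0.215).

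In C3H lungs 0 of the 37 members were called after NNK by limma, and 6 had an unadjusted p under 0.05. Over all genes 12 were called, 0.0803%, and 936 had an unadjusted p under 0.05. The members' median was -0.005, the same as over all genes, and the range ran from -0.17 (Hydin) to 0.15 (Cdhr4). Without the arrays of high Saa3, which removes week 3 from the C3H change, the median was 0.03, with 25 of the 37 members above 0. Without week 6 the median was -0.04, with 12 members above 0. The difference between the strains was tested as its own term. It was called for 9 of 37 members, each with the larger rise in A/J, while 1% of all genes were called in that direction and 0.127% in the other. These were Pifo (0.57 ± 0.12), Dynlrb2 (0.47 ± 0.08), Lrrc23 (0.44 ± 0.07), Armc3 (0.39 ± 0.07), Myb (0.36 ± 0.06), Cdhr4 (0.35 ± 0.09), Dnali1 (0.33 ± 0.08), Efcab1 (0.32 ± 0.06) and Dnaic1 (0.27 ± 0.06). Their adjusted p lay between 0.00267 for Lrrc23 and 0.0463 for Cdhr4 and Dnali1. For Foxj1 the difference was 0.23 ± 0.07 (adjusted p = 0.0888), so its response was not shown to differ between the strains. Over the fits with other settings or arrays left out, the Foxj1 difference ran from 0.19 to 0.30. In the 36 fits with 1 array left out the call of Dnali1 was lost in 26, that of Cdhr4 in 25 and that of Dnaic1 in 13, and the other 6 were called in all. With the arrays of high Lor left out, and so 3 weeks in the A/J change, only Dynlrb2 was called (0.0803% of all genes), with 0.47 ± 0.08, adjusted p = 0.0292, and without week 6 in either strain 0 were (0.0201%). The median of the members' differences was 0.25 with all arrays, 0.21 without the arrays of high Lor and 0.24 without week 6. Without the arrays of high Saa3 it was 0.19, with weeks 3, 9 and 12 of A/J set against weeks 6, 9 and 12 of C3H. When single arrays were left out, the count of calls over all genes moved as well as that of the members. Each such fit leaves a lone array in a group, so its count is not read as a result about the members.

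**Figure D3:**
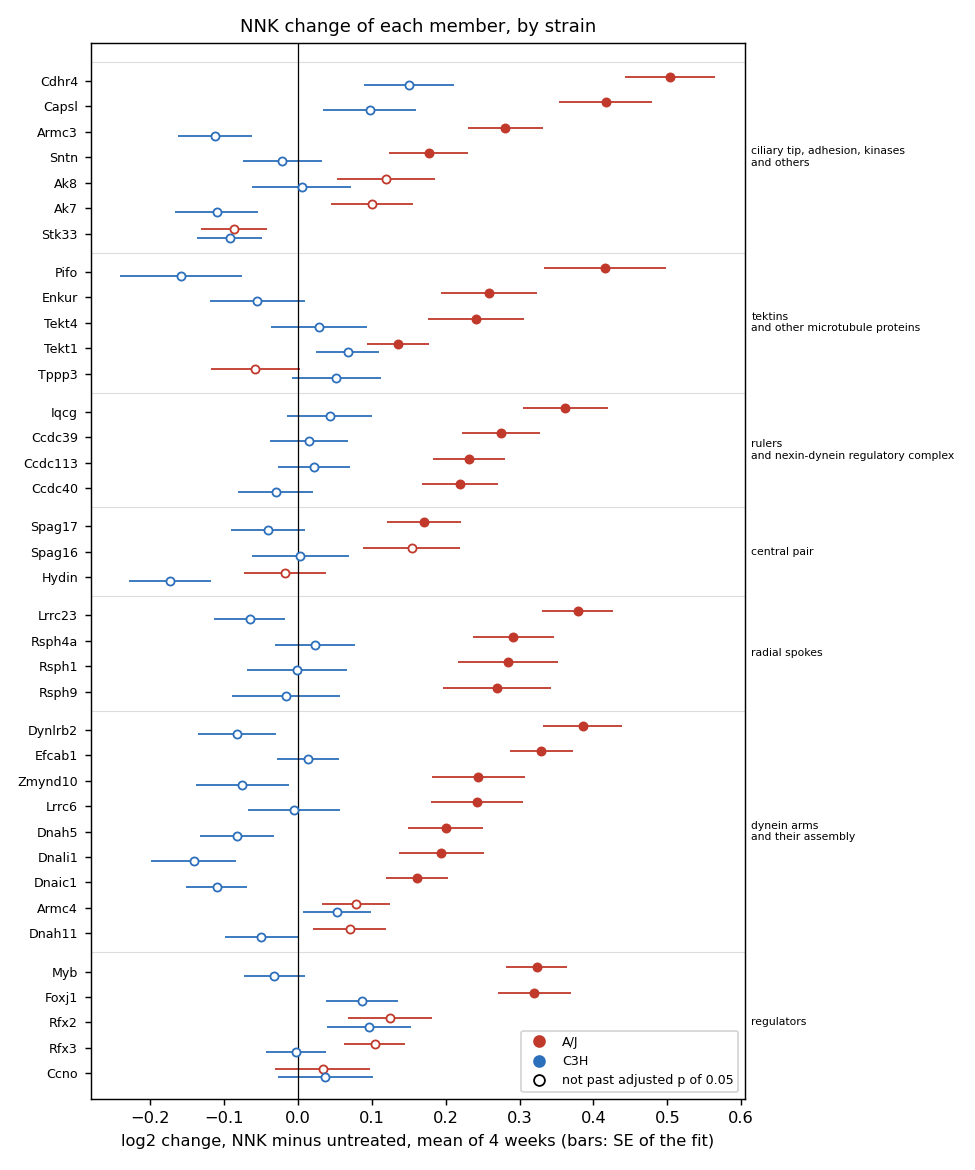
NNK change of each tested member in A/J (red) and C3H (blue), by role, as the mean of 4 weekly differences on the log2 scale with the standard error of the fit. Filled points passed an adjusted p of 0.05. The 26 filled points are all A/J and lie to the right of 0, and the blue points lie on both sides.

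Week by week, 3 members rose in A/J at week 3, 20 at week 6, 2 at week 9 and 0 at week 12, when 0.288%, 4.36%, 1.17% and 0.0736% of all genes rose. At week 12, 11 members had an unadjusted p under 0.05 in limma. At week 3 they were Dynlrb2 (0.60 ± 0.11), Lrrc23 (0.55 ± 0.10) and Myb (0.38 ± 0.08), a light chain, a spoke gene and a regulator. At week 6 both untreated arrays had high Lor (12.74 and 13.59) and both NNK-treated arrays high Saa3 (10.42 and 11.76), and the part of these in the week's result was not tested. Its largest rises were those of Lrrc23 (0.62 ± 0.10), Efcab1 (0.59 ± 0.08), Pifo (0.57 ± 0.16) and Iqcg (0.56 ± 0.12), and Foxj1, Myb and Rfx3 rose among the regulators. At week 9 Cdhr4 rose by 0.62 ± 0.12 and Efcab1 by 0.33 ± 0.08. The median change of the members was 0.27, 0.34, 0.17 and 0.17 in the 4 weeks. Both NNK-treated arrays lay above both untreated arrays in 24, 25, 23 and 19 of the 37 members, against 18.5%, 32%, 29.4% and 17.9% of all genes in the same weeks. The differences between the weeks were not tested.

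These weekly counts, each from 2 arrays against 2, moved with single arrays, and so did the counts over all genes. At week 3 the count was 9 without array 2 of the untreated lungs (Saa3 12.32), 0 without array 1 of the untreated or array 2 of the treated lungs, and 1 without array 1 of the treated. At week 6 it was 3 without untreated array 1, 12 without untreated array 2 and 5, 1 of them lower, without treated array 2. At week 9 it was 4 without untreated array 1 and 0 without untreated array 2 or treated array 2. Without all arrays of high Saa3, week 3 of A/J keeps a lone untreated array, and its count of risen members is not given. The members' mean was also read per array. Untreated A/J arrays stood at 8.89 and 9.11 in week 3, 8.76 and 8.79 in week 6, 8.82 and 8.81 in week 9, and 8.95 and 8.95 in week 12. The NNK-treated A/J arrays stood at 9.21 and 9.27, 8.97 and 9.20, 8.95 and 9.01, and 9.04 and 9.15. In each week both treated arrays were above both untreated ones.

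**Figure D4:**
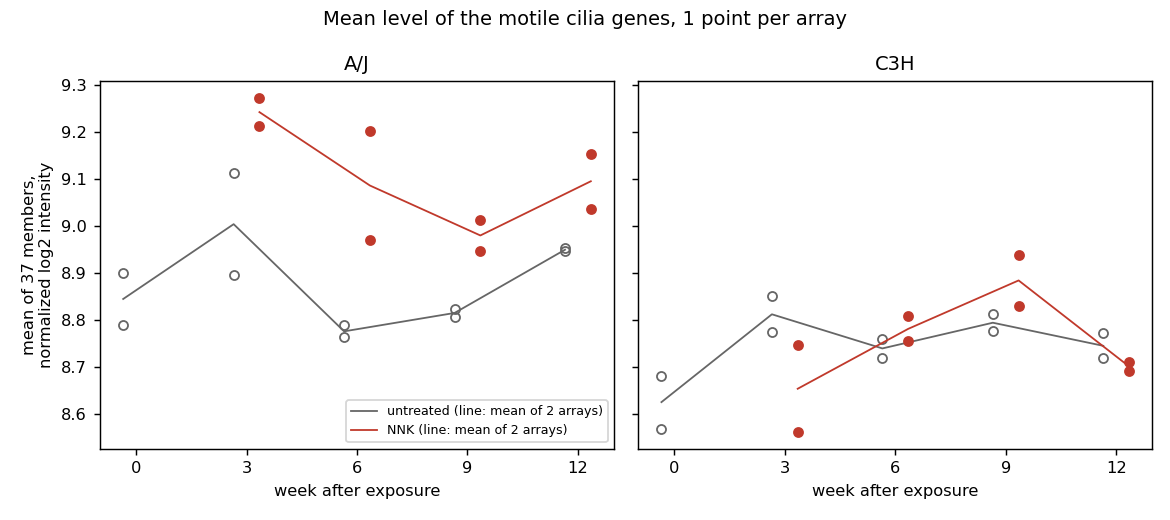
Mean of the 37 tested members in each array by week after exposure, in normalized log2 intensity, with lines through the mean of the 2 arrays of a group. In A/J the NNK-treated arrays lie above the untreated arrays of the same week throughout, from 9.27 down to 8.95. In C3H they lie below at weeks 3 and 12 and near or above the untreated arrays at weeks 6 and 9.

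In C3H 0 members were called in any of the 4 weeks by limma, with 15, 0, 4 and 0 at an unadjusted p under 0.05, while 0.0936%, 0.0134%, 0% and 0% of all genes were called. At week 3 both NNK-treated arrays lay below both untreated arrays in 21 of 37 members (30.1% of all genes), and the median change was -0.20. These are the 2 arrays with Saa3 at 13.33 and 11.76, and its part in the result was not tested; without the second of them 3 members were called lower at week 3. At week 9 both NNK-treated arrays were above both untreated arrays in 18 members (13.7% of all genes), with a median change of 0.10. At week 12 they were below both in 13 members (11.8% of all genes) and above both in 2 (14.3%), with a median change of -0.03. The members' means were 8.56 and 8.75 in treated against 8.85 and 8.77 in untreated arrays at week 3, and 8.94 and 8.83 against 8.81 and 8.78 at week 9. In this mean the NNK-treated arrays of the 2 strains did not overlap: the lowest A/J mean was 8.95 and the highest C3H mean 8.94.

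The strains also differed without NNK, and the cause of these differences was not tested. Over weeks 0 to 12, 17 of 37 members were higher and 3 lower in untreated A/J than in untreated C3H, while 19.8% of all genes were higher and 36.3% lower. Armc3 was the most different, with 8.57 to 9.20 (median 8.75) in the 10 untreated A/J arrays and 7.96 to 8.23 (median 8.07) in the 10 untreated C3H arrays. These ranges did not overlap, and the difference was 0.70 ± 0.05 (adjusted p = 1.32e-11). Iqcg followed with 0.69 ± 0.05, Dynlrb2 with 0.57 ± 0.05, Enkur with 0.48 ± 0.06 and Rsph1 with 0.39 ± 0.06 (adjusted p between 1.47e-10 and 1.07e-05). Iqcg also had no overlap, with a lowest A/J level of 8.45 and a highest C3H level of 8.19. Foxj1 was higher in A/J by 0.27 ± 0.04 (adjusted p = 1.31e-05), from 9.01 to 9.52 (median 9.26) against 8.84 to 9.13 (median 8.98).

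Sntn, Stk33 and Rfx2 ran the other way. Sntn stood between 8.97 and 9.74 (median 9.43) in untreated A/J and between 9.87 and 10.29 (median 10.11) in untreated C3H, with no overlap and a difference of -0.66 ± 0.05 (adjusted p = 9.44e-11). Stk33 differed by -0.33 ± 0.04 and Rfx2 by -0.18 ± 0.05 (adjusted p = 2.52e-07 and 0.00421). All 20 of these calls remained when each of the 36 arrays was left out in turn. Among NNK-treated lungs 30 members were higher in A/J and 4 lower, at 23.5% and 29.8% of all genes. All 9 dynein arm genes were among the higher ones, from 0.14 ± 0.05 for Armc4 to 1.02 ± 0.05 for Dynlrb2. Armc3 again led with 1.09 ± 0.05, and Tppp3 joined Sntn, Stk33 and Rfx2 among the lower (-0.22 ± 0.06). Without the arrays of high Saa3 the count of calls was 27 in place of 34, and all 27 were among the 34.

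**Figure D5:**
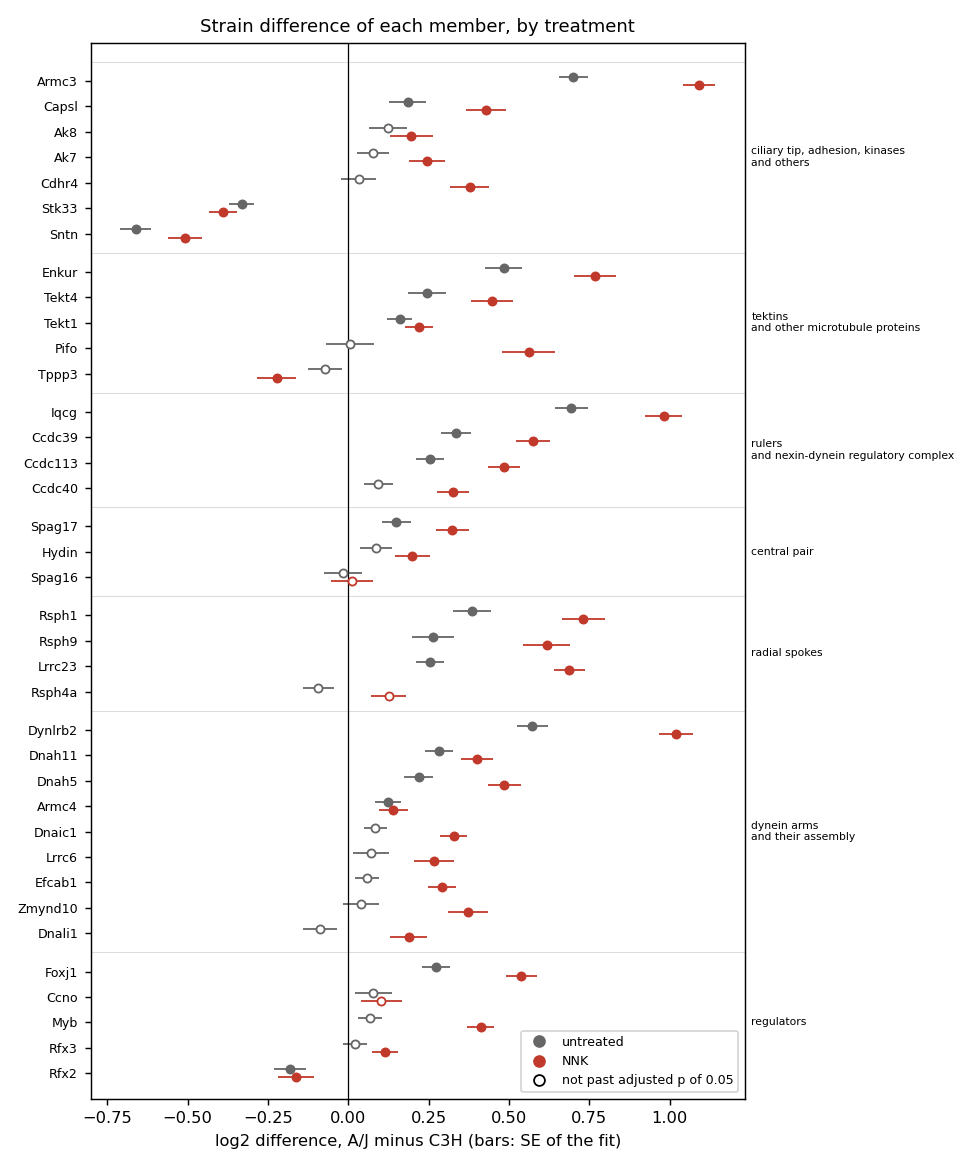
Difference between A/J and C3H for each tested member, in untreated lungs (grey, weeks 0 to 12) and NNK-treated lungs (red, weeks 3 to 12), on the log2 scale with the standard error of the fit. Filled points passed an adjusted p of 0.05. Most red points lie to the right of the grey point of the same gene, and Sntn, Stk33 and Rfx2 lie left of 0 in both.

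Over the 12 weeks, untreated A/J lungs showed 3 members that rose and 3 that fell, at 17.5% and 5.27% of all genes. Foxj1 rose by 0.31 ± 0.09 over the span, Rsph1 by 0.36 ± 0.12 and Rsph9 by 0.44 ± 0.13, and Efcab1, Spag16 and Tppp3 fell, with changes of -0.25 ± 0.08, -0.42 ± 0.12 and -0.33 ± 0.11 (adjusted p between 0.0148 and 0.0351). At week 0 Rsph1 stood at 8.19 and 8.31 and Rsph9 at 8.04 and 8.22, lower than in any later untreated A/J array. Foxj1 stood at 9.01 and 9.13, with 1 later array, array 1 of week 3, between them at 9.07. None of these 6 calls remained in every fit that left out 1 array: the count was 1 without array 1 of week 0 and 3 without array 2 of week 0, array 2 of week 9 or array 1 of week 12. Without the arrays of high Saa3 it was 10, and without those of high Lor 3. The count over all genes moved with the array left out as well. In untreated C3H 0 members were called by limma, with 5 at an unadjusted p under 0.05 and 0.863% of all genes called. The difference between the strains' trends was called for 0 members, with 2 at an unadjusted p under 0.05, against 1.32% of all genes.

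As a description, the members moved together across arrays. The correlation of a member with the mean of the others over the 36 arrays had a median of 0.81, and 21 of 37 were over 0.8. The arrays share strain and treatment, so the same was computed on deviations from the group means, where the median was 0.69 and 29 of 37 were over 0.5. Rfx2, Ccno, Tppp3, Sntn and Stk33 had correlations under 0.1 over the 36 arrays. Within groups their correlations were 0.64 for Tppp3, 0.54 for Sntn, 0.66 for Stk33, 0.34 for Rfx2 and -0.37 for Ccno. The 12 genes outside the list whose levels followed the members' mean most closely were Cdkl4 and Ccdc30 (r = 0.96 and 0.95), Cfap206, Ccdc162, Maats1, Dnaic2, Pih1d2, Nme5, Vwa3a, Erich2, 1700016K19Rik and Saxo2 (r from 0.94 for Cfap206 down to 0.90 for Saxo2). All 12 rose in A/J after NNK, by between 0.19 (Dnaic2) and 0.43 (Erich2), and none was called in C3H. They were chosen for their likeness over the same arrays, so this is no independent result.

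Further genes of the cilia machinery, from lists written with earlier results known, were counted in A/J beside the members. Of all genes tested, 7.44% rose and 2.6% fell with all arrays, 3.24% rose without the arrays of high Lor, and 2.41% rose without week 6. Together they held 102 tested genes, of which 48 rose and 0 fell; 22 of the 102 were called without the arrays of high Lor and 20 without week 6. Of 21 other dynein and assembly genes 7 rose and 0 fell, among them Nme5 by 0.33, Dnaaf5 by 0.24, Wdr78 by 0.23 and Dnaic2 by 0.19. Of 25 other spoke, central pair and regulatory complex genes 11 rose and 0 fell, with Ropn1l at 0.25 and Cfap206 at 0.23. Of 48 other axoneme and ciliated cell genes 27 rose and 0 fell, including Cfap126 (0.46), Cfap52 (0.40), Ccdc170 (0.31) and Mak (0.28). This list shares 4 genes with the one before it, Cfap206 and Cfap70, which rose, and Cfap43 and Cfap57, which were not called. Of 12 other regulators of multiciliated cells 5 rose and 0 fell, including Cdc20b (0.28), Ccdc78 (0.20), which acts in making many centrioles, and Plk4 (0.23), the kinase that starts centriole duplication. With the high-Lor arrays left out, 3, 4, 15 and 0 genes of the 4 lists rose. In C3H none of these 4 lists had a called gene, where 0.0803% of all genes were called. The lists' medians in A/J were 0.10, 0.14, 0.21 and 0.10, against 0.01 for all genes.

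Markers of other cells that the excised tissue could hold were read beside the members. Over all genes 7.44% rose and 2.6% fell in A/J with all arrays, and 3.24% rose without those of high Lor. Of 18 club cell genes 4 rose and 2 fell in A/J with a median of 0.02 (2 and 1 without the arrays of high Lor), and the mean level of the list ran from 11.20 to 11.48 untreated and from 11.23 to 11.48 after NNK. Scgb1a1, the defining club cell secretoglobin, lay between 13.53 and 13.85 untreated and between 13.67 and 13.88 after NNK. Of 9 basal cell genes and 10 smooth muscle genes none was called in A/J with all arrays, and 1 basal cell gene, Krt5, rose without those of high Lor. Of 14 tracheal cartilage genes 2 fell and 0 rose (1 fell without the arrays of high Lor; Chad, in both counts, is also on the club cell list), and the list's mean ran from 8.66 to 8.94 untreated and from 8.56 to 8.81 after NNK. Of 13 cornified skin genes 7 were called lower, 0 without the arrays of high Lor. The changes of Krt1 and Lor were -5.36 and -6.29 at week 6 and between -0.20 and 0.13 in the other weeks, so that the means over weeks, -1.36 and -1.66, come from week 6. The list's mean ran from 8.09 to 10.45 untreated and from 8.08 to 8.23 after NNK. Of 12 mesothelial genes none was called, and the list's mean ran from 9.51 to 10.90 untreated and from 9.18 to 10.45 after NNK. The part of the skin genes in the members' result was not tested beyond leaving out the arrays that carry them.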

How the data were processed

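Total RNA of 36 lung samples was hybridised to Affymetrix mouse gene arrays, 1 array per sample. The authors' deposited values are linear intensities; the submitters' processing notes name PLIER and Affymetrix Expression Console, while settings, versions and build are not given in the sources used here. Array medians were 285 to 347 intensity units; precision is limited by how many arrays there are. The deposited intensities were taken to log2(intensity + 16) and quantile-normalized, and each gene was represented by its brightest probe set. Genes under the 25th percentile of mean level were left out.

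In R 4.3.3, limma 3.58.1 was fitted once to 18 group means over the 36 arrays (18 residual degrees of freedom), with eBayes and Benjamini-Hochberg adjustment over 14953 genes. The NNK change is the mean of 4 weekly differences, the strain difference untreated the mean of 5, and the week trend a linear contrast expressed over 12 weeks. Of 35556 probe sets, 21789 carried 1 gene symbol, 1621 several and 12146 none. The members, lists and tests were chosen with earlier results of these data known. Values by array are given for the 5 regulators and for the 2 tested members of each other role with the smallest p for the NNK change in A/J; those of Dnah5, Armc3 and Sntn were added after their values were seen. At most 4 genes per other list are named, by p. On simulated data with 200 changed genes, the NNK change in A/J recovered 80% of changes of 0.25 and 99% of changes of 0.5. The difference between strains recovered 46% and 93%, and 5 and 8 unchanged genes were called. The simulated noise was independent between genes, with 1 spread per gene for both strains. In the data the members moved together within groups and A/J varied more than C3H, so these rates are not the power of this study.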

Additional observations from a re-analysis of the deposited data

Results flagged for a closer look

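The NNK change differed between A/J and C3H by the interaction term of the fit, tested with limma at an adjusted p under 0.05, in 9 members. The differences on the log2 scale were 0.57 for Pifo, 0.47 for Dynlrb2, 0.44 for Lrrc23, 0.39 for Armc3, 0.36 for Myb, 0.35 for Cdhr4, 0.33 for Dnali1, 0.32 for Efcab1 and 0.27 for Dnaic1, each with the larger change in A/J. Myb, Dynlrb2, Efcab1, Lrrc23, Pifo and Armc3 were called in all 36 fits that left out 1 array, while Dnali1 lost its call in 26, Cdhr4 in 25 and Dnaic1 in 13. Without the 3 arrays of high Lor, Dynlrb2 alone was called. In a search for single arrays far from the others of their group, over the genes with values by array or by group range and the members' mean in 4 groups of 8 arrays, 0 of 84 tests passed, where chance would flag about 1 in 20.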

How the results depend on the processing

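The counts of called members kept within 1.5 times of the reported value under a pseudocount of 1 in every comparison, and with the deposited scale, no filter, the mean of probe sets or trended and robust variances in all but week 9 of A/J, where each gave 1 in place of 2. With a filter at the 50th percentile, which leaves 20 members, the counts were 12 for the NNK change in A/J, 10 and 19 for the strain difference untreated and after NNK, 2 for the week trend in A/J, 9 for week 6 and 1 for week 9. With arrays of 1 strain in the fit they were 14 for NNK in A/J, 2 for each strain's week trend, and 1, 5 and 0 for A/J weeks 3, 6 and 9.

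Without the arrays of high Lor the counts were 14 for NNK in A/J, 1 for the difference between strains, 3 for the week trend in A/J and 1 for week 9. Without week 6, chosen after seeing the data, they were 12, 0 and, for week 9, 1. Without the arrays of high Saa3, also chosen after seeing the data, they were 3 for the trend in C3H and 5 for week 9 of A/J. Week 3 of untreated A/J then holds a lone array, and counts that rest on it are not given here. The cause was not tested.

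Leaving out each array in turn gave 18 to 26 for NNK in A/J, 0 to 0 in C3H, 6 to 22 for their difference, 20 to 24 and 31 to 35 for the strain differences untreated and after NNK, 1 to 8 and 0 to 2 for the trends in A/J and C3H, and 0 to 1 for their difference. In A/J it gave 0 to 9, 3 to 21, 0 to 4 and 0 to 0 for weeks 3, 6, 9 and 12, and in C3H 0 to 3 for week 3 and 0 to 0 for weeks 6, 9 and 12; the lone array left in a group was taken to vary like the other groups. No called change of the genes given by array or by group range, Dnah5, Armc3 and Sntn among them, changed sign in the NNK comparisons or the untreated strain difference.

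The labels do not say whether the array numbers pair the samples. Deviations of treated and untreated arrays of the same number, within strain and week, correlated between -0.201 and 0.222. With 2 arrays per group this cannot show whether the numbers carry a pairing. With the number as a replicate block, the counts were 26, 0 and 10 for NNK in A/J, in C3H and their difference, 20 and 35 for the strain differences, 6, 0 and 0 for the trends, and 3, 21, 2 and 0 for the A/J weeks.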

Other observations

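Genes of intraflagellar transport and primary cilia, which non-ciliated cells also express, were read as a further list. In A/J after NNK 16 of 40 rose and 0 fell, with a median change of 0.12, while 7.44% of all genes rose and 2.6% fell. In C3H 0 of the 40 and 0.0803% of all genes were called (limma, Benjamini-Hochberg). Without the arrays of high Lor 1 of the 40, Ttc30b, rose in A/J, while 3.24% of all genes rose. Traf3ip1, among the 16, is also on the list of other axoneme genes. Ttc30b rose by 0.33, Ift74 by 0.29, Bbs5 by 0.28 and Wdr35 by 0.23, and for Ttc30b the difference between strains was called (0.35, adjusted p = 0.0378). The list's mean level ran from 8.98 to 9.27 in untreated and from 9.12 to 9.32 in NNK-treated A/J arrays.

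Other epithelial genes moved in A/J as well, where 7.44% of all genes rose and 2.6% fell. Among 15 goblet cell and gland genes 6 rose and 3 fell: Ltf, lactotransferrin, rose by 1.36, Clca3b by 1.23 and Lcn2, lipocalin, by 0.55, while Tff2, a trefoil peptide, fell by 0.45. The defining goblet markers Muc5b and Muc5ac changed by -0.35 and -0.10, and neither was called (limma adjusted p = 0.155 and 0.274). Of 12 alveolar type 2 genes 6 rose and 0 fell, with Scd1, a fatty acid desaturase, at 0.28, the surfactant protein gene Sftpd at 0.26 and Lamp3 at 0.22. Sftpc, the defining type 2 marker, changed by 0.02 and was not called (limma adjusted p = 0.65). The difference between strains was called for Clca3b (1.06, adjusted p = 0.0407), Lcn2 (0.61, adjusted p = 0.039), Sftpd (0.34, adjusted p = 0.0202) and Lamp3 (0.29, adjusted p = 0.0292), and in C3H neither list had a called gene. When the arrays of high Lor were left out, 4 goblet and gland genes rose and 1 fell, and 4 alveolar type 2 genes rose. Of all genes 3.24% rose in that fit.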
